A study of Homo sapiens with 18 samples.

Results

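A set of 10 genes that make, carry, break down or sense prostaglandins were read in 3 human lung cancer cell lines before and after a TGFβ-induced epithelial-mesenchymal transition (EMT). They were taken from the deposited table by their symbols, namely PTGS1, PTGS2, PTGES, PTGES2, PTGES3, SLCO2A1, HPGD, PTGR1, PTGER2 and PTGER4. All 10 were present, of 19849 genes in all. The set was chosen by the measured fall of HPGD in these same arrays, so the HPGD change is described here without a test. The other 9 genes were tested.

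Prostaglandins are lipid signals made from arachidonic acid, which phospholipases and lipases free from membrane lipids. The cyclooxygenases PTGS1 and PTGS2 turn it into PGH2, and terminal synthases such as PTGES convert PGH2 into prostaglandin E2 (PGE2). PGE2 acts on cell surface receptors, among them PTGER2 (EP2) and PTGER4 (EP4), which raise cyclic AMP. The carrier SLCO2A1 takes the lipid back into the cell, where HPGD (15-hydroxyprostaglandin dehydrogenase) oxidizes and inactivates it. The lung is a major site of this clearance.

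The arrays covered 6 groups of 3 arrays each, 18 arrays in all. Parental cells were untreated, and the mesenchymal derivatives had been grown with 2 ng/ml TGFβ for 3 weeks according to the labels, whereas the methods give a period that differs by line. By those methods the cytokine was removed the day before lysis, and every line was kept in RPMI1640 with 10% serum. HCC827 carries an activating EGFR mutation. A legend of the study describes biological samples made in parallel, 3 to a group, so the spread between arrays leaves out variation between independent inductions. The period for which the parental cells were cultured alongside was not given in the sources used here.

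The arrays of a group were alike, and the state labels could be checked. The SD of gene-wise differences between 2 arrays of 1 group was 0.163 to 0.282 on the log2 scale, and at least 0.719 between groups. Mesenchymal markers (CDH2, VIM, FN1, ZEB1, SNAI2) rose in all 3 lines, 5 of 5 in each. Epithelial markers (CDH1, EPCAM, ESRP1, KRT19) fell 4 of 4 in HCC827 and NCI-H358 and 3 of 4 in A549, where ESRP1 lay at percentile 10.8 of all genes in parental cells already. Leukocyte markers (PTPRC, CD14, CD3E) lay between percentiles 3.17 and 41.4, and endothelial markers (PECAM1, CDH5, VWF) between percentiles 15.7 and 34.7. Of these 6 genes CD14 fell in A549, by 1.36, and 1 endothelial gene, PECAM1, rose in HCC827, by 0.41, whereas the others did not pass the test. Levels below are RMA values on the log2 scale, so a difference of 1 is a change of 2-fold. They are given for the 3 arrays of a group in turn, and a percentile ranks the group mean of a gene among all genes of that group.

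HPGD was the member with the widest range of levels. In A549 it read 10.57, 10.50 and 10.55 in parental cells and 3.59, 3.42 and 3.74 in mesenchymal cells. This was a difference of -6.96 in log2 level, or 124-fold, and took the gene from percentile 92.9 to percentile 10.8. The HCC827 arrays read 11.54, 11.18 and 11.06 in the parental group and 7.92, 8.11 and 8.17 in the mesenchymal group, a difference of -3.19 or 9.16-fold. NCI-H358 cells gave 8.69, 8.95 and 9.04 before and 4.41, 4.19 and 3.83 after the transition, a difference of -4.75 or 26.9-fold. The 2 groups were far apart in each line. The mesenchymal levels were unlike each other, at percentile 70.1 of all genes in HCC827 and 17.3 in NCI-H358. The table holds no detection calls, so how far the lowest levels of A549 and NCI-H358 lie above the array's background was not tested.

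Ranked over the 6 groups, HPGD was highest in parental HCC827 and then fell through parental A549, parental NCI-H358, mesenchymal HCC827, mesenchymal NCI-H358 and mesenchymal A549. No 2 neighbours in that order had overlapping arrays. The differences between lines in the size of the fall, likewise untested, were 3.76 between HCC827 and A549, 2.21 between NCI-H358 and A549 and -1.55 between NCI-H358 and HCC827. Leaving out any 1 array kept the A549 difference between -7.04 and -6.87, the HCC827 difference between -3.29 and -3.06 and the NCI-H358 difference between -4.88 and -4.59. Across all genes, 0.121% were lower in all 3 lines by more than 5-fold with an adjusted p below 1e-05, the study's thresholds, which HPGD was chosen to meet.

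**Figure D1:**
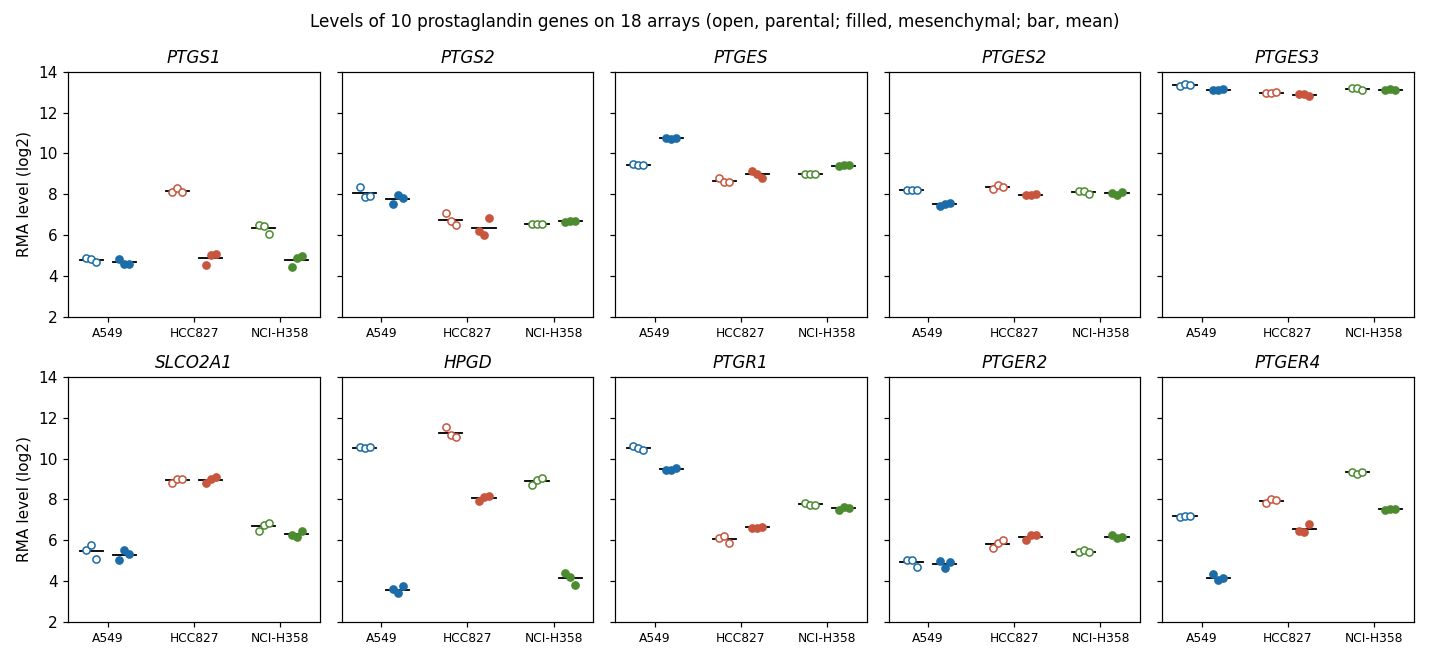
Levels of the 10 genes on the 18 arrays, as RMA values on the log2 scale (vertical axis), for each cell line (horizontal axis). Open points are parental and filled points mesenchymal arrays, and the bar is the mean of 3. Mean HPGD falls from 10.54 to 3.58 (A549), from 11.26 to 8.07 (HCC827) and from 8.89 to 4.14 (NCI-H358), while SLCO2A1 differs more between lines than between states.

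HPGD and PTGER4 were the only 2 of the 10 genes with no overlap and a lower level in every line, and their promoters are shown for that reason. The sequences are from RefSeq (GRCh38.p14) and run from 250 bases before to 50 bases after an annotated start. HPGD has 2 such starts, 405 bases apart on the minus strand of chromosome 4, and the windows are chr4:174522439-174522738 and chr4:174522844-174523143. PTGER4 has 1 on the plus strand of chromosome 5, chr5:40679665-40679964. Capitals mark the 1 match to the motifs searched, an E-box.
HPGD window 1: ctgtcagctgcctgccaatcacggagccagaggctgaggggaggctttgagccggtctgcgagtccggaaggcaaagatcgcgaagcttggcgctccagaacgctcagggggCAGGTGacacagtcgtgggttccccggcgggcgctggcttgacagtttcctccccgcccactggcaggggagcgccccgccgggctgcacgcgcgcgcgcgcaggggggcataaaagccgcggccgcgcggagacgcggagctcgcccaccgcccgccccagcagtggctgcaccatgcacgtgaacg
HPGD window 2: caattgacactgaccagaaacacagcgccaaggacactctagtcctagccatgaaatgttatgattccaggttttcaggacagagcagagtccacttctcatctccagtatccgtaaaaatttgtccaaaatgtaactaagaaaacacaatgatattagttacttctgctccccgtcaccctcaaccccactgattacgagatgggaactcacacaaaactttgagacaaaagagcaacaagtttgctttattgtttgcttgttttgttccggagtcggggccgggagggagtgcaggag
PTGER4: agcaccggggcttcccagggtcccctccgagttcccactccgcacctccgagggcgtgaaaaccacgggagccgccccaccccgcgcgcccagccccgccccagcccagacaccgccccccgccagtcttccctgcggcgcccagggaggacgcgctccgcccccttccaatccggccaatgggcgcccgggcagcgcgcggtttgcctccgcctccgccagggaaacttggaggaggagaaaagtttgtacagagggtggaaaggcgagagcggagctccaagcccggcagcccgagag
The first HPGD window and the PTGER4 window were rich in G and C, at 71% and 72%, with 34 and 30 CpG pairs. The second HPGD window had 44.7% and 7 CpG pairs. The medians over 35116 promoters of the same length were 58.7% and 14.

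Promoters were found for 9 of the 10 members, 13 windows in all, and SLCO2A1 was not matched. Each was searched on both strands for the E-box CACCTG bound by ZEB and SNAI repressors, the AP-1 site TGANTCA, the cyclic AMP response element TGACGTCA, the TATA box TATAAA and the antioxidant response element core TGACNNNGC. These letters occur in 20.6%, 7.71%, 1.85%, 11.5% and 13.3% of all promoters. HPGD window 1 holds the E-box, read as CAGGTG on the gene's strand, at position -138 counted from the start. PTGES2 holds another in 1 of its 3 windows, at position -30. A TATA box lies at position -32 of PTGS2. PTGS1, PTGES2 and PTGES3 held the antioxidant response element core, and PTGS1 a TATA box. PTGER4, PTGES, PTGR1 and PTGER2 held none of these letters in their windows. A match is a description of the letters and not a measured site, and binding was not analysed here.

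Beyond HPGD, the 9 tested genes moved to different extents in the 3 lines. With both thresholds, 1 of 9 changed in A549 (PTGER4, lower), 1 in HCC827 (PTGS1, lower), and NCI-H358 had 0, against 1.9%, 2.95% and 2.17% of all genes. In NCI-H358, 6 of the 9 had an unadjusted p below 0.05 by limma. So did at least the 41.4% of all genes that passed after adjustment. At an adjusted p below 0.05, the level used for "rose" and "fell" below, 5, 6 and 4 of 9 passed for A549, HCC827 and NCI-H358, beside 43.4%, 45.8% and 41.4% of all genes. Those that rose numbered 1, 3 and 2 (16.6%, 20.8% and 21.5% of all genes), and those that fell 4, 3 and 2 (26.8%, 25% and 19.8%). PTGES was the only tested member that rose in all 3 lines (4.31% of all genes did so), and PTGER4 the only one that fell in all 3 (6.14%). In the same order of lines, the median log2 difference of the 9 was -0.24, -0.098 and -0.054, and that of all genes was -0.021, 0.0051 and 0.015. The median size regardless of sign was 0.30, 0.37 and 0.38 for the 9 and 0.21, 0.22 and 0.19 for all genes.

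**Figure D2:**
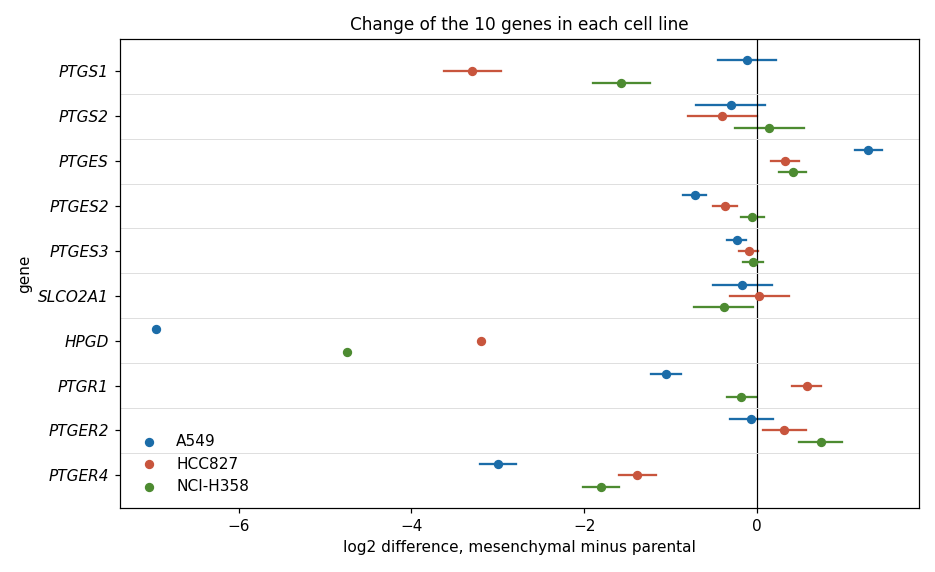
Log2 difference between mesenchymal and parental cells (horizontal axis) for each of the 10 genes (vertical axis), coloured by cell line. Points are differences of means of 3 arrays, and lines are 95% confidence intervals from limma, left out for HPGD, which was chosen for its fall. HPGD has differences of -6.96 (A549), -3.19 (HCC827) and -4.75 (NCI-H358), and the lowest points of other genes are PTGS1 in HCC827, at -3.29, and PTGER4 in A549, at -3.00.

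Among the cyclooxygenases, PTGS1, the constitutively expressed enzyme, fell in HCC827 and NCI-H358. HCC827 arrays read 8.09, 8.31 and 8.12 in parental and 4.52, 5.03 and 5.08 in mesenchymal cells. The fall was 3.29 ± 0.157 (SE) on the log2 scale, or 9.81-fold (limma, adjusted p = 1.62e-11). NCI-H358 read 6.47, 6.46 and 6.04 against 4.45, 4.86 and 4.97, which fell by 1.57 or 2.97-fold (adjusted p = 2.82e-07). The 2 groups did not overlap in either line. A549 arrays overlapped, with 4.85, 4.82 and 4.68 in parental and 4.82, 4.58 and 4.60 in mesenchymal cells, a difference of -0.12 (95% interval -0.45 to 0.22, adjusted p = 0.595). The parental means spanned 4.78 to 8.17 and the mesenchymal means 4.67 to 4.88. Parental A549 already lay at percentile 27.2, and mesenchymal A549, HCC827 and NCI-H358 at percentiles 24.8, 28.2 and 25.9. How far these levels lie above the array's background was not tested, nor whether a further fall in A549 could be read. Parental HCC827 was 3.39 above parental A549 (adjusted p = 5.61e-12) and parental NCI-H358 1.54 above it (adjusted p = 1.54e-07), whereas no pair of mesenchymal groups passed the test (adjusted p of 0.278, 0.657 and 0.575). The first of these pairs, HCC827 against A549, passed when HCC827 mesenchymal replicate 1 was left out, with 0.39 (adjusted p = 0.0401).

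PTGS2, the inducible cyclooxygenase, passed the test in none of the 3 lines. A549 read 8.35, 7.88 and 7.92 in parental and 7.50, 7.94 and 7.80 in mesenchymal cells, a difference of -0.30 (95% interval -0.70 to 0.097, adjusted p = 0.221). HCC827 read 7.09, 6.69 and 6.48 against 6.19, 6.01 and 6.84, a difference of -0.40 (-0.80 to -0.0038, adjusted p = 0.0955). The third HCC827 mesenchymal array was above 2 of the parental ones, and without it the difference was -0.65 with an adjusted p of 0.00414. It was -0.54 with an adjusted p of 0.0412 without HCC827 parental replicate 3, and -0.47 with an adjusted p of 0.0156 with array weights. NCI-H358 arrays were nearly constant, at 6.53, 6.53 and 6.54 and then 6.64, 6.68 and 6.70, a difference of 0.14 (-0.26 to 0.54, adjusted p = 0.624). These 2 groups did not overlap. The interval rests on 1 spread estimated over all 6 groups. Their SDs ran from 0.0079 in parental NCI-H358 to 0.44 in mesenchymal HCC827. Between lines, parental A549 stood above parental HCC827 by 2.47-fold (adjusted p = 1.19e-05) and above parental NCI-H358 by 2.86-fold (adjusted p = 1.85e-06).

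The terminal PGE2 synthases did not move together. PTGES, the inducible microsomal enzyme that works downstream of PTGS2, rose in all 3 lines with no overlap. Its A549 arrays read 9.50, 9.43 and 9.42 in parental and 10.76, 10.72 and 10.74 in mesenchymal cells, a rise of 1.29 ± 0.075 (SE) or 2.45-fold (adjusted p = 3.07e-10). In HCC827 it read 8.78, 8.60 and 8.58 against 9.13, 8.99 and 8.81, a rise of 0.32 or 1.25-fold (adjusted p = 0.0017). NCI-H358 went from 8.97, 8.99 and 9.01 to 9.38, 9.42 and 9.42, a rise of 0.41 or 1.33-fold (adjusted p = 0.000221). The rise was larger in A549 than in HCC827 by 0.97 (adjusted p = 1.12e-06) and than in NCI-H358 by 0.88 (adjusted p = 3.66e-06).

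PTGES2, a second membrane-associated synthase, fell in 2 lines. A549 read 8.23, 8.23 and 8.22 in parental and 7.42, 7.54 and 7.56 in mesenchymal cells, a fall of 1.65-fold (adjusted p = 7.31e-08). HCC827 went from 8.28, 8.44 and 8.33 to 7.98, 7.96 and 7.998, a log2 difference of -0.37 (adjusted p = 0.000119). The NCI-H358 groups overlapped, with 8.16, 8.15 and 8.01 against 8.08, 7.98 and 8.10, and a difference of -0.054 (95% interval -0.19 to 0.081, adjusted p = 0.569).

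PTGES3, the cytosolic synthase, is also the HSP90 co-chaperone p23. It stayed between percentiles 99.3 and 99.6 of all genes in the 6 groups. It fell in A549 from 13.33, 13.40 and 13.38 to 13.13, 13.11 and 13.16, by 1.18-fold (adjusted p = 0.00151). HCC827 differed by -0.098 (adjusted p = 0.153) and NCI-H358 by -0.048 (adjusted p = 0.543), and the first passed once the spread was allowed to depend on signal (adjusted p = 0.0202). RefSeq lists pseudogenes of PTGES3 and of PTGER4, and whether their transcripts share signal with these probe sets was not tested.

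The uptake carrier SLCO2A1 differed more between lines than between states. It read 8.80, 9.03 and 9.004 in parental and 8.79, 9.01 and 9.11 in mesenchymal HCC827 (difference 0.026, adjusted p = 0.924). A549 read 5.51, 5.77 and 5.10 against 5.01, 5.52 and 5.33 (difference -0.17, adjusted p = 0.446). In NCI-H358 it was 6.43, 6.74 and 6.85 against 6.24, 6.17 and 6.46, groups that overlapped by 1 array, with a difference of -0.38 (95% interval -0.73 to -0.040, adjusted p = 0.0707). This last value passed in 6 of the alternatives tried, with adjusted p down to 0.0309 without NCI-H358 parental replicate 1. Parental HCC827 stood 3.49 or 11.2-fold above parental A549 (adjusted p = 5.9e-12), and mesenchymal HCC827 12.8-fold above mesenchymal A549 (adjusted p = 3.02e-12).

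PTGR1 (prostaglandin reductase 1), which reduces the 15-keto products that HPGD makes and also leukotriene B4, moved in opposite directions. In A549 it fell from 10.62, 10.54 and 10.42 to 9.42, 9.44 and 9.57, by 2.07-fold (adjusted p = 1.26e-08). In HCC827 it rose from 6.10, 6.20 and 5.88 to 6.62, 6.61 and 6.67, by 1.49-fold (adjusted p = 1.43e-05). NCI-H358 read 7.84, 7.71 and 7.73 against 7.50, 7.64 and 7.60, with a difference of -0.18 (95% interval -0.35 to -0.0076, adjusted p = 0.0922). The change in HCC827 differed from that in A549 by 1.63 (adjusted p = 5.59e-09). All 6 groups were separate in level, in the order parental A549, mesenchymal A549, parental NCI-H358, mesenchymal NCI-H358, mesenchymal HCC827 and parental HCC827. Parental A549 stood 22.1-fold above parental HCC827 (adjusted p = 3.83e-17) and 6.80-fold above parental NCI-H358 (adjusted p = 1.17e-14).

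Of the receptors, PTGER4 fell in every line and PTGER2 rose in some. For PTGER4 the A549 arrays read 7.13, 7.17 and 7.19 in parental and 4.33, 4.04 and 4.13 in mesenchymal cells. The fall was 3.00 ± 0.0989 (SE) or 8.01-fold (adjusted p = 1.79e-13), from percentile 59.3 to percentile 17.9. HCC827 went from 7.83, 8.01 and 7.95 to 6.44, 6.38 and 6.82, by 2.61-fold (adjusted p = 3.17e-09). NCI-H358 went from 9.37, 9.25 and 9.36 to 7.49, 7.51 and 7.55, by 3.50-fold (adjusted p = 1.18e-10). No pair of groups overlapped in any line. The fall was larger in A549 than in HCC827 by 1.62 (adjusted p = 6.36e-08) and than in NCI-H358 by 1.19 (adjusted p = 2.56e-06). The 6 groups kept apart in the order parental NCI-H358, parental HCC827, mesenchymal NCI-H358, parental A549, mesenchymal HCC827 and mesenchymal A549. Mesenchymal NCI-H358 cells thus still read higher than parental A549 cells, at 7.52 against 7.17.

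PTGER2 rose in NCI-H358 from 5.41, 5.50 and 5.41 to 6.25, 6.11 and 6.18, by 1.67-fold (adjusted p = 5.54e-05). In HCC827 it read 5.63, 5.89 and 6.00 against 5.99, 6.24 and 6.23, a rise of 0.32 (adjusted p = 0.0342) between groups that overlapped by 1 array. That call was lost without HCC827 parental replicate 1 (adjusted p = 0.176), HCC827 mesenchymal replicate 2 (0.113) or HCC827 mesenchymal replicate 3 (0.107), with array weights (0.0728) and in a separate fit of the line (0.0697). A549 arrays overlapped, at 5.02, 5.05 and 4.67 against 4.97, 4.66 and 4.92, with a difference of -0.066 (adjusted p = 0.697). The rise in NCI-H358 exceeded the change in A549 by 0.80 (adjusted p = 0.000743).

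The tested members also separated the lines within a state. Between parental cells, PTGS1, SLCO2A1 and PTGR1 passed both thresholds for HCC827 against A549 (3 of 9, beside 5.15% of all genes) and PTGR1 for NCI-H358 against A549 (1 of 9, 6.19%). NCI-H358 against HCC827 gave 0 of 9 (3.32%), with 8 of 9 at an unadjusted p below 0.05 by limma. The share of all genes at that unadjusted level is not given here. Between mesenchymal cells, SLCO2A1, PTGR1 and PTGER4 passed for HCC827 against A549 (3 of 9, 4.51%), PTGER4 for NCI-H358 against A549 (1 of 9, 5.83%) and SLCO2A1 for NCI-H358 against HCC827 (1 of 9, 3.47%). Some of these differences lay near the 5-fold threshold. SLCO2A1 in parental NCI-H358 was 4.82-fold below parental HCC827 (limma, adjusted p = 2.37e-09). PTGER4 in mesenchymal HCC827 was 5.204-fold above mesenchymal A549. This fell under 5-fold without A549 mesenchymal replicate 2 or HCC827 mesenchymal replicate 3 and with array weights. PTGER4 in parental NCI-H358 was 4.48-fold above parental A549 (adjusted p = 3.79e-12). Tested directly, the change differed between HCC827 and A549 for 5 of 9 members, between NCI-H358 and A549 for 6 and between NCI-H358 and HCC827 for 4, beside 42.2%, 42.8% and 37.9% of all genes.

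A wider list of eicosanoid genes was read beside the members: phospholipases and lipases, other prostanoid synthases and receptors, efflux, and the lipoxygenase branch, which turns arachidonic acid into leukotrienes instead. The table held 43 of its 45 genes. At both thresholds 3 of 43 changed in A549 (MGLL and ABCC4 lower, ALOX5AP higher), 2 in HCC827 (PLA2G16 and ALOX5, both lower), and NCI-H358 had 1 (ALOX5AP, higher), beside 1.9%, 2.95% and 2.17% of all genes. In A549 the count was 2 without A549 mesenchymal replicate 1, where the ABCC4 difference was -2.29 and under 5-fold, without A549 parental replicate 3, where that of ALOX5AP was 2.30 and under 5-fold, and in a separate fit of the line. At an adjusted p below 0.05, 18 of 43 passed in A549 (6 higher, 12 lower), 20 in HCC827 (6 and 14), and NCI-H358 had 16 (7 and 9). These are 41.9%, 46.5% and 37.2%, near the shares of all genes given above. Those that rose in all 3 lines were PLA2G4C, TBXA2R and ALOX5AP, and those that fell in all 3 were PLA2G16, AKR1B1, PTGR2, ABCC4 and LTA4H. These 8 genes are 3 and 5 of 43, or 6.98% and 11.6%, beside 4.31% and 6.14% of all genes.

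MGLL, the lipase that frees arachidonic acid from 2-arachidonoylglycerol, fell in A549 from 9.65, 9.58 and 9.55 to 6.48, 6.55 and 6.52, by 8.46-fold (adjusted p = 2.35e-16). It fell by 1.18 in HCC827 (adjusted p = 2.23e-11) but rose by 0.48 in NCI-H358 (adjusted p = 2.76e-06). PLA2G16, a phospholipase, fell in HCC827 from 11.59, 11.01 and 11.04 to 8.42, 8.48 and 8.42, by 6.82-fold (adjusted p = 3.18e-12), by 2.24 in NCI-H358 and by 0.86 in A549. The release genes as a group of 10 had 2 higher and 2 lower in A549, 1 and 4 in HCC827, with 2 and 3 for NCI-H358. Of all genes, 16.6% were higher and 26.8% lower in A549, 20.8% and 25% in HCC827, with 21.5% and 19.8% for NCI-H358.

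ABCC4, the pump that exports PGE2 from the cell, fell in A549 from 7.98, 7.92 and 8.07 to 5.37, 5.83 and 5.57, by 5.28-fold (adjusted p = 3.62e-10). The fall was 1.78 in HCC827 (adjusted p = 1.21e-08), and NCI-H358 fell by 0.41 (adjusted p = 0.0284). The last call was lost when NCI-H358 parental replicate 2 or 3 or any of the 3 NCI-H358 mesenchymal replicates was left out, with an adjusted p of 0.106, 0.12, 0.0574, 0.0743 and 0.058. PTGR2, a second reductase of 15-keto prostaglandins, had log2 differences of -0.95, -1.22 and -0.87 in A549, HCC827 and NCI-H358 (adjusted p = 6.95e-05, 3.33e-06 and 0.000159). It was named after its values were seen, and PTGR1 belongs to a set chosen with earlier results of these data known.

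In the lipoxygenase branch, ALOX5 (5-lipoxygenase) fell in 1 line, and ALOX5AP (its activating protein) rose in all 3. ALOX5 fell in HCC827 from 8.38, 7.98 and 7.58 to 3.21, 3.34 and 3.21, by 26.5-fold (adjusted p = 2.48e-13), from percentile 68.6 to percentile 7.65. How far the mesenchymal level lies above the array's background was not tested. ALOX5 lay no higher than percentile 5.15 in A549 and percentile 3.14 in NCI-H358, in either state. ALOX5AP rose in A549 from 6.38, 6.46 and 5.87 to 8.63, 8.68 and 8.84, by 5.59-fold (adjusted p = 6.88e-10). In NCI-H358 it went from 5.25, 4.98 and 4.92 to 7.49, 7.62 and 7.70, by 5.87-fold (adjusted p = 3.94e-10), and in HCC827 it rose by 1.54 (adjusted p = 2.12e-07). LTA4H, which makes leukotriene B4, had differences of -0.26, -0.87 and -0.94 in A549, HCC827 and NCI-H358. Of the 4 leukotriene receptors, 1 rose in HCC827 (LTB4R) and 1 fell in NCI-H358 (CYSLTR1). Among all genes, 20.8% rose in HCC827 and 19.8% fell in NCI-H358. CYSLTR1 lay at percentile 13.5 in parental and 7.74 in mesenchymal NCI-H358. How far these levels lie above the array's background was not tested. Leukocytes are known for ALOX5 and ALOX5AP. The mean level of the 3 leukocyte markers lay between 4.11 (mesenchymal A549) and 4.78 (parental A549) on every array. Of these markers CD14 fell in A549, by 1.36. Whether leukocytes contribute to these levels was not tested. Of the other 8 genes for prostanoid receptors or a receptor regulator, 2 rose and 0 fell in A549, 1 and 1 in HCC827, with 2 and 0 for NCI-H358, beside the same shares of all genes as for the release genes.

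**Figure D3:**
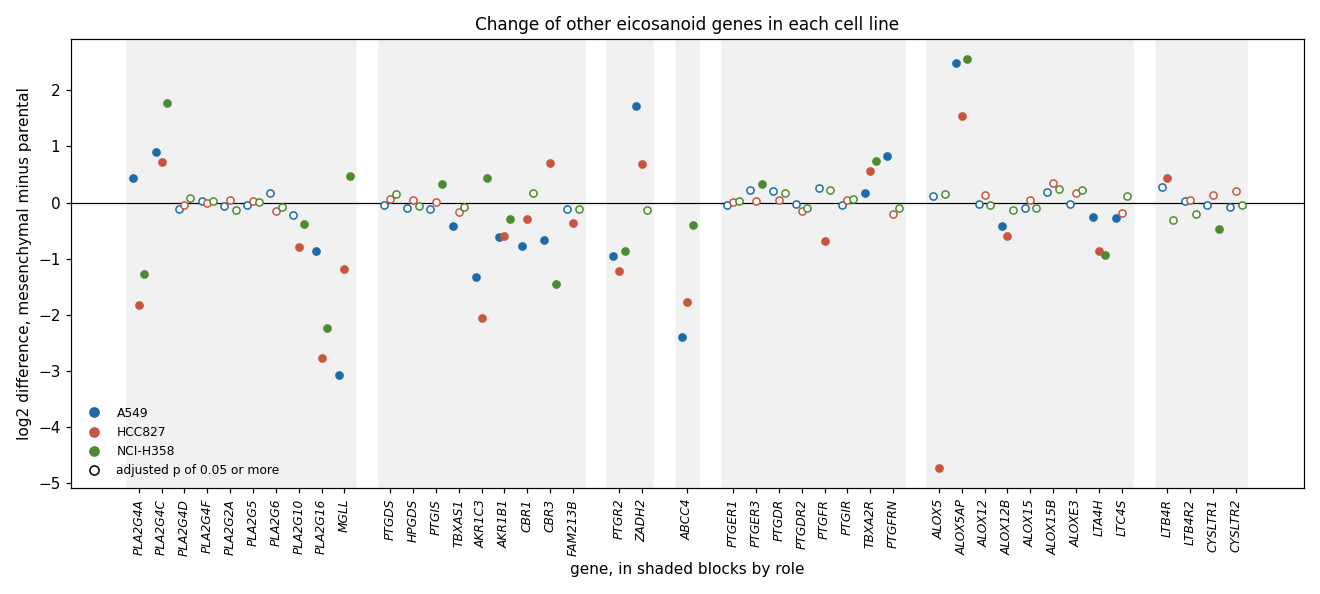
Log2 difference between mesenchymal and parental cells (vertical axis) for the 43 other eicosanoid genes (horizontal axis), in shaded blocks by role: release, other synthases and reductases, breakdown, efflux, receptors, lipoxygenase branch and leukotriene receptors. Filled points passed an adjusted p below 0.05 in limma and open points did not. ALOX5 in HCC827, at -4.73, is the lowest point and ALOX5AP in NCI-H358, at 2.55, the highest.

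Genes whose levels ran most alike with those of the members over the 18 arrays were looked up among 9059 genes whose group means span at least 1 on the log2 scale. For HPGD they were CEACAM6 (Pearson r = 0.978), ANXA3 (0.966), TM4SF18 (0.961), GPR39 (0.96) and ASPH (0.957). For PTGER4 they were EMP1 (0.989), VAV1 (0.987) and LAMA3 (0.984). For PTGR1 they were LEO1 (0.983), SAE1 (0.98) and TP53I13 (0.98), and for SLCO2A1 ASL (0.982), SNHG6 (0.981) and GUCY1A3 (0.98). The 18 arrays form 6 groups of 3 that share a line and a state. Pearson r thus describes the linear agreement of 6 levels, not their rank order, and carries no p. Group means alone were compared only for the genes named here. The highest values among them were 0.988 for HPGD (CEACAM6) and 0.994 for PTGER4 (VAV1).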

How the data were processed

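Gene expression was profiled on Affymetrix U133 Plus 2.0 arrays. The deposited values are log2 levels that the authors had normalized by RMA, 1 probe set for each of 19849 genes. How that probe set was chosen is not given in the sources used here, and other probe sets were not analysed. RMA shrinks differences between dim probe sets, so folds of dim genes can be understated. All 18 columns bear a sample's title, and 0 columns were left without a sample.

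The 18 arrays entered 1 linear model (lmFit, eBayes) of limma 3.58.1, run in R 4.3.3, as 6 groups without a covariate, and p-values were Benjamini-Hochberg adjusted over all genes. A gene was called with a fold change above 5 and an adjusted p below 1e-05, the study's thresholds, and a difference between lines with an adjusted p below 0.05. The fit was tested on simulated data. The members and gene lists were chosen with earlier results of these data known. Named were all 10 members, the listed pathway genes called in at least 1 line, and the 5 (HPGD) or 3 genes nearest in pattern to the 4 members of widest range. PLA2G4C, TBXA2R, AKR1B1, PTGR2, LTA4H, LTB4R and CYSLTR1 were named after their values were seen. The alternatives were other thresholds, an intensity trend, array weights, median centring, a filter on dim probe sets, a separate fit per line, the methods' t-test and each array left out in turn. Arrays have no sequencing depth, and 3 per group limit the precision.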

Additional observations from a re-analysis of the deposited data

Results flagged for a closer look

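The mesenchymal-against-parental change was compared between lines in the limma fit, and 15 of 27 comparisons of the members and 13 of 15 of the named pathway genes had an adjusted p below 0.05. Each value is a difference of 2 log2 changes, the first line named minus the second. Of all genes, 37.9% to 42.8% passed. The named pathway genes were picked for passing both thresholds in at least 1 line, and 0 of the 43 listed passed them in all 3. That choice itself selects for changes that differ between lines, so 13 of 15 cannot be set against the share of all genes. Of the whole list, 15 of 43 (34.9%) passed in each pair of lines.

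For PTGS1 the change in HCC827 differed from that in A549 by -3.18 (adjusted p = 4.74e-09), that in NCI-H358 differed from A549 by -1.45 (4.58e-05), and NCI-H358 from HCC827 by 1.73 (8.7e-06). PTGS1 already lay at percentile 27.2 in parental A549, and whether a further fall could be read there was not tested. The PTGES rise differed by -0.97 (1.12e-06) for HCC827 against A549 and by -0.88 (3.66e-06) for NCI-H358 against A549. PTGES2 gave 0.35 (0.00448) for HCC827 against A549, 0.67 (1.33e-05) for NCI-H358 against A549 and 0.31 (0.0107) for NCI-H358 against HCC827. For PTGR1, with opposite directions in A549 and HCC827, the same comparisons gave 1.63 (5.59e-09), 0.87 (9.72e-06) and -0.75 (5.34e-05). The PTGER2 change was larger in NCI-H358 than in A549 by 0.80 (0.000743). PTGER4 gave 1.62 (6.36e-08), 1.19 (2.56e-06) and -0.42 (0.0234), and the last was lost without HCC827 parental replicate 1 (0.055) or HCC827 mesenchymal replicate 3 (0.0519) and with array weights (0.0542).

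In the wider list, PLA2G16 gave -1.91 (5.87e-08) for HCC827 against A549, -1.38 (2.9e-06) for NCI-H358 against A549 and 0.53 (0.0173) for NCI-H358 against HCC827. MGLL gave 1.90 (1.11e-11), 3.56 (1.3e-14) and 1.66 (1.04e-10) in the same order. The values of ABCC4 were 0.62 (0.0188), 1.99 (4.02e-07) and 1.37 (3.19e-05). The first of these was lost without A549 mesenchymal replicate 1 (0.0569), HCC827 parental replicate 3 (0.0518) or HCC827 mesenchymal replicate 3 (0.0545) and with array weights (0.0518). ALOX5 differed for HCC827 against A549 by -4.85 (3.37e-11) and for NCI-H358 against HCC827 by 4.87 (5.81e-11). In A549 and NCI-H358 it lay no higher than percentiles 5.15 and 3.14 in either state, and whether a fall could be read there was not tested. ALOX5AP differed in the same pairs by -0.94 (0.00189) and 1.01 (0.00119).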

How the results depend on the processing

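No paired analysis was possible because the labels give no replicate numbers. The replicate numbers used here follow the order of the samples and match no array between groups. Of 3213 refits of 144 single results, 3143 kept their direction and their side of the threshold. Of those kept, 2546 were fits with 1 array left out. Where that array lay in a group outside the comparison, the difference could not change, only its error. The refits of HPGD, chosen for its fall, carried no test. The share kept is therefore high in part by design. The 3 arrays per group, and 1 probe set per gene, limit all results.

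With a fold change above 2 in place of 5, the members called for A549, HCC827 and NCI-H358 were 3, 2 and 2, and the pathway genes 5, 8 and 5. Between lines they were 5 (parental NCI-H358 against A549), 4 (parental NCI-H358 against HCC827), 6 (mesenchymal HCC827 against A549) and 4 (mesenchymal NCI-H358 against A549). With an adjusted p below 0.05 at any fold change they were 5, 6 and 4 members and 18, 20 and 16 pathway genes, 8, 8 and 8 members between parental lines and 8, 7 and 5 between mesenchymal lines. At 1e-05 the change of 3 members differed between NCI-H358 and A549, and of 1 between NCI-H358 and HCC827. At an adjusted p below 0.05, 43.4%, 45.8% and 41.4% of all genes passed between states in A549, HCC827 and NCI-H358. For the other thresholds of this paragraph the share of all genes is not given here, so these counts show only the dependence on the threshold. Array weights gave 1 call for parental NCI-H358 against HCC827, and leaving out 1 array gave 0 to 1, with 1 without HCC827 parental replicate 1 or NCI-H358 parental replicate 3. The methods' t-test, with a fold change above 5 and a p below 0.05, gave 1, 1 and 0 members and 3, 2 and 1 pathway genes, both before and after Benjamini-Hochberg adjustment. Left-out arrays gave 2 to 3 pathway genes in A549 and 2 to 3 members for mesenchymal HCC827 against A549.

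Small differences that passed no test changed sign. With array weights they were -0.0060 for the PTGES change of NCI-H358 against HCC827, -0.074 for SLCO2A1 in HCC827 and -0.094 for the ALOX5 change of NCI-H358 against A549. With median centring they were 0.0022 for PTGER2 in A549 and -0.0073 for the ALOX5 change of NCI-H358 against A549. With an array left out, the range was -0.046 to 0.12 for SLCO2A1 in HCC827 and -0.19 to 0.032 for PTGER2 in A549. For the change of HCC827 against A549 it was -0.35 to 0.068 for PTGS2. For that of NCI-H358 against A549 it was -0.10 to 0.13 for ALOX5 and -0.041 to 0.26 for ALOX5AP. For mesenchymal levels it was -0.015 to 0.25 (PTGS1, NCI-H358 against A549), -0.30 to 0.036 (PTGS1, NCI-H358 against HCC827) and -0.060 to 0.067 (PTGER2, NCI-H358 against HCC827). The cause was not tested.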
